A study of Mus musculus with 6 samples.

Results

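The odorant receptors of the mouse nose were measured here in olfactory epithelium of Harlequin mice and their littermate controls. A probe set, a group of short probes read as a single value on an Affymetrix array, was taken as an odorant receptor probe set when it named 1 gene and that gene's symbol began with Olfr and a digit or with Or, a digit and a letter. The rule itself used names and no measured value, though it was set with earlier results of these data known. It found 39 genes of 18193 named on the array, read by 44 of its 45037 probe sets that are not controls, and 3 further probe sets that name 2 receptors each were not members. Each array held total RNA from the microdissected epithelium of 1 mouse. The 3 Harlequin mice were 6-month-old males of genotype Hq/Y and strain B6CBACAw-J/A-Pdcd8-Hq/J, and the 3 controls were 6-month-old +/Y littermate males of strain B6CBACa. All came to the animal facility at 13 weeks of age, and no treatment is named for any of them. The stated strain differs along with the genotype, so strain background and the Harlequin allele cannot be told apart. Hq is an allele of the X-linked gene Aifm1, formerly Pdcd8, carried in every cell and not only in neurons. Aifm1 encodes a mitochondrial flavoprotein that supports the respiratory chain, and the study looked for mechanisms of neurodegeneration under oxidative stress.

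Odorant receptors are G protein-coupled receptors in the cilia of olfactory sensory neurons, and a mature neuron settles on a single receptor gene. Binding of an odorant activates the G protein subunit Gnal and the adenylyl cyclase Adcy3, and the cyclic AMP made opens a channel built on Cnga2. Receptors fall into class I, fish-like receptors whose genes form a cluster on chromosome 7 of the mouse and are used mostly in the dorsal epithelium, and class II, used in overlapping zones from dorsal to ventral. Only neurons in its zone use a given receptor, so the RNA of a receptor in whole tissue depends on how many neurons chose it. In whole tissue, fewer neurons using a receptor and less receptor RNA per neuron cannot be told apart. Of the 39 genes, 11 belong to class I by the family number of their MOR synonym in the RefSeq table (families up to 42). The other 28 were taken as class II. These include genes, such as Olfr16 and Olfr49, whose synonyms gave no family number that could be read. Class I has 15 of the probe sets and class II has 29.

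The promoters of 4 receptors are shown because their genes stand at opposite ends of the pattern described below, with Olfr1509 and Olfr1508 at one end and Olfr690 and Olfr16 at the other. Receptor promoters are known for sites of homeodomain factors such as Lhx2 and Emx2 and for sites of the Olf/Ebf (O/E) factors. Each sequence is the 250 bases before the RefSeq gene start in GRCm38.p6, read 5′ to 3′ on the strand of the gene. Capitals mark every match to the homeodomain core TAATNA on either strand.
Olfr1509, chr14:52450143-52450392, plus strand: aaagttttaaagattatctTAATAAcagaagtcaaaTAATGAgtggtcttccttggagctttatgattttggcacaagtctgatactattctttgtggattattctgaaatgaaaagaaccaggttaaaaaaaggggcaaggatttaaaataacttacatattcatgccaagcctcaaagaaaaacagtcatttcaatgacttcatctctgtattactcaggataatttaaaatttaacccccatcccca
Olfr1508, chr14:52467462-52467711, minus strand: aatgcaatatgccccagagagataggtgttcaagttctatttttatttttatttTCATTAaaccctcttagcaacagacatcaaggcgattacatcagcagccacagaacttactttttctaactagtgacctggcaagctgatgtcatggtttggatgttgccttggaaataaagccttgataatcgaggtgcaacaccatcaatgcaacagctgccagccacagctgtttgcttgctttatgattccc
Olfr690, chr7:105330279-105330528, minus strand: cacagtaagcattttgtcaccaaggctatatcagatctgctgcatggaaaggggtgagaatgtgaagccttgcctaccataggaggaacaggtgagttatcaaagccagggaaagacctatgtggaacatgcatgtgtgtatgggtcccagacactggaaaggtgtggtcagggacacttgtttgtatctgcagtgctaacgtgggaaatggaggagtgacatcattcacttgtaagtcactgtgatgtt
Olfr16, chr1:172956518-172956767, plus strand: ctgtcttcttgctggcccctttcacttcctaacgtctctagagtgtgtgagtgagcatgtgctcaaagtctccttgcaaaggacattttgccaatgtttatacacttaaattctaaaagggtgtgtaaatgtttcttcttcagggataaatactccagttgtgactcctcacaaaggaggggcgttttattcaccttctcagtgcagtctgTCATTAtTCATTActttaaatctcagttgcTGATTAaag
These windows hold 2 matches for Olfr1509, 1 for Olfr1508, 0 for Olfr690 and 3 for Olfr16. A RefSeq promoter was found for 29 of the 39 genes. TAATNA stood in 14 of these 29 windows (48.3%), against 27.3% of the windows of 27025 genes. The O/E core CCCNNGGG, which reads the same on both strands and shares no base with a TAATNA match, stood in 1 of the 29 (3.45%), against 13.4% of all. The receptor windows were poorer in G and C, with a median of 40.6% against 52.4% of all promoters, and no allowance was made for this. A match is a stretch of letters and not a measured site.

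Receptor RNA was above the working threshold for most of the probe sets. The mean signal over the 6 arrays exceeded 61, the threshold for entering the tests, for 34 of 44 probe sets (77.3%) and 31 genes. The other 10 probe sets were at or below it. Of all 45037 probe sets that are not controls, 27382 exceeded it, so passing it is not particular to receptors. Signal is a linear intensity without a unit, and because it depends on the probes as well as on the RNA, levels of different receptors are not set against each other. By class, 12 of the 34 were class I and 22 were class II. Of all 44, 26 had a mean above 100, 21 were above 61 on each of the 6 arrays, and 5 were above 61 on none. Counted by array, 28, 33 and 34 probe sets exceeded 61 in Harlequin mice 1, 2 and 3, and 34, 30 and 31 did so in control mice 1, 2 and 3.

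The threshold fell among probe sets with like means. Just above it lay Olfr70 at 73.6, a probe set of Olfr78 (1421507_at) at 64.7 and Olfr64 at 62.2, and just below it lay Olfr49 at 60.5, another of Olfr78 (1453535_at) at 60.1 and one of Olfr66 (1450596_at) at 56.9. The 5 probe sets above 61 on no array had means of 37.4 for the pseudogene Olfr75-ps1, 18.4 for Olfr74, 15.3 for Olfr2, 13.4 for Olfr157 and 5.7 for Olfr159. Olfr2, also called I7, is a receptor for octanal, and Olfr157 and Olfr159 belong to the OR37 group, whose neurons lie in a patch in the middle of the epithelium. Olfr155, another OR37 receptor, averaged 40.6, and Olfr558, a class I relative of Olfr78, averaged 27.3. A low mean shows that these probes saw little signal in whole tissue and does not show that the gene is silent.

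The arrays themselves were alike, and the gene of the Hq allele matched the genotypes. Pearson correlations between arrays over all probe sets tested were 0.971 to 0.979 within a genotype and 0.969 to 0.981 between genotypes, and the mean correlation of each array with the other 5 was 0.973 to 0.975. Aifm1 read 335.4, 221.1 and 211.2 in Harlequin and 1239.9, 1255.6 and 1128.2 in control. The groups did not overlap, and the log2 difference was -2.20 (limma, Benjamini-Hochberg adjusted p = 0.0102). The exact permutation p was 0.1, the smallest that 3 against 3 mice allow. Olfactory marker protein, Omp, the defining gene of mature sensory neurons, read 17661.5, 18821.7 and 15891.8 in Harlequin and 17347.8, 16922.4 and 16391.9 in control, so the defining marker of the labelled tissue was strong on all arrays. The labels call the arrays of a genotype biological replicates, 1 mouse each.

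Receptor values varied widely between mice of the same genotype. Harlequin mouse 2 gave the highest or the lowest of the 6 values for 26 of the 34 receptor probe sets above 61 (76.5%), against 31.4% of all 27382 probe sets tested. It was highest for 11 and lowest for 15, or 32.4% and 44.1%, where the shares over all probe sets were 16.3% and 15.1%. The other arrays were highest or lowest for 6 to 11 of the 34. The classes differed in direction. Among class II receptors mouse 2 was highest for 11 of 22 and lowest for 5, and among class I receptors it was highest for 0 of 12 and lowest for 10. This pattern was noticed after the values were seen and is given as a description. The 34 were themselves chosen by a mean that includes Harlequin mouse 2. Olfr288, highest there, did not exceed 61 with that mouse left out.

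**Figure D1:**
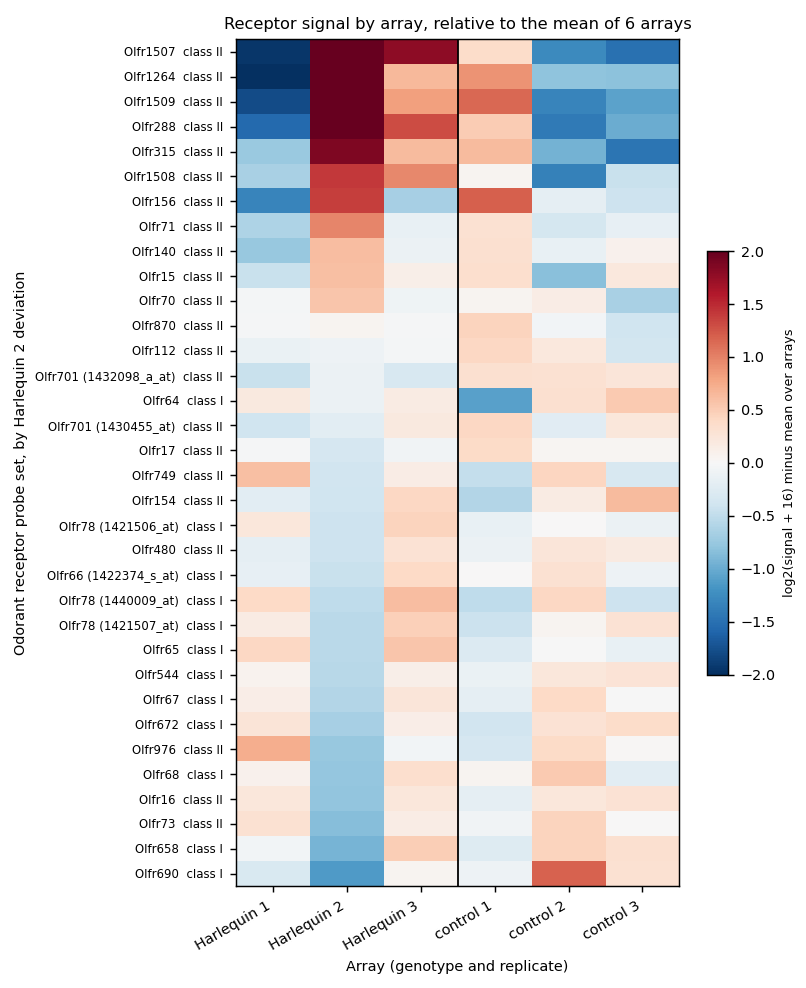
Signal of the 34 receptor probe sets above 61 on each array, as log2(signal + 16) minus the mean of the 6 arrays, in rows ordered by the value in Harlequin 2, with colours capped at -2 and 2. The upper class II rows are highest in Harlequin 2, and 10 of the 12 class I rows are lowest there.

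The 11 receptors that were highest in Harlequin mouse 2 included 3 neighbours on chromosome 14, Olfr1507, Olfr1508 and Olfr1509. They are known as MOR28, MOR10 and MOR83, are used in the ventral epithelium, and Olfr1509 responds to a thiol of male mouse urine. Olfr1507 read 14.4, 676.8 and 392.9 in Harlequin mice 1, 2 and 3 and 135.4, 32.8 and 25.8 in controls 1, 2 and 3. Olfr1508 read 71.4, 349.6 and 250.4 in Harlequin and 125.9, 37.5 and 84 in control. Olfr1509 read 31.9, 739.3 and 275 in Harlequin and 351.8, 50.3 and 63 in control. All 3 were high in Harlequin 2 and 3 and, within the controls, highest in control 1, while Harlequin 1 lay at or near the bottom. The lowest value of each was below the signal of 61, so no fold between mice is given. Probes of close relatives can share a target, so the 3 may not be independent readings.

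Receptors outside that cluster followed a like order of mice. Olfr1264, on chromosome 2, read 23.3, 987 and 287.5 in Harlequin and 345.2, 95.2 and 93.8 in control. Olfr288, on chromosome 15, read 6.7, 285.1 and 148.6 in Harlequin and 79.1, 9.2 and 17.5 in control. Olfr315, on chromosome 11, read 36, 302.5 and 119.1 in Harlequin and 119.6, 29.4 and 15.8 in control. These receptors are among the 11 chosen for a top value in Harlequin 2, so that value was fixed by the choice. Their groups overlapped. Olfr156, the OR37 receptor with a mean above 61, differed from them in that Harlequin 3 was low. It read 20.6, 221.8 and 41.2 in Harlequin and 191.3, 64.4 and 52.2 in control. The remaining 4 of the 11, Olfr140, Olfr15, Olfr71 and Olfr70, had an SD over the 6 arrays of log2(signal + 16) below 1. Olfr140 read 228.7, 616.4 and 367.1 in Harlequin and 500.5, 359.2 and 424.7 in control, and Olfr15 read 278.9, 591.7 and 420.9 in Harlequin and 490.2, 209.6 and 447.1 in control. Olfr71 and Olfr70, neighbours on chromosome 4, reached 159.2 and 112.3 in Harlequin 2 and at most 94.3 and 80.7 in the other mice. Summed over the 11, the signal was 823, 5042 and 2433 in Harlequin 1, 2 and 3 and 2508, 1022 and 1328 in control 1, 2 and 3. The highest sum, in Harlequin 2, follows from the choice of the 11. Harlequin 1 was the lowest array for 7 of the 11.

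**Figure D2:**
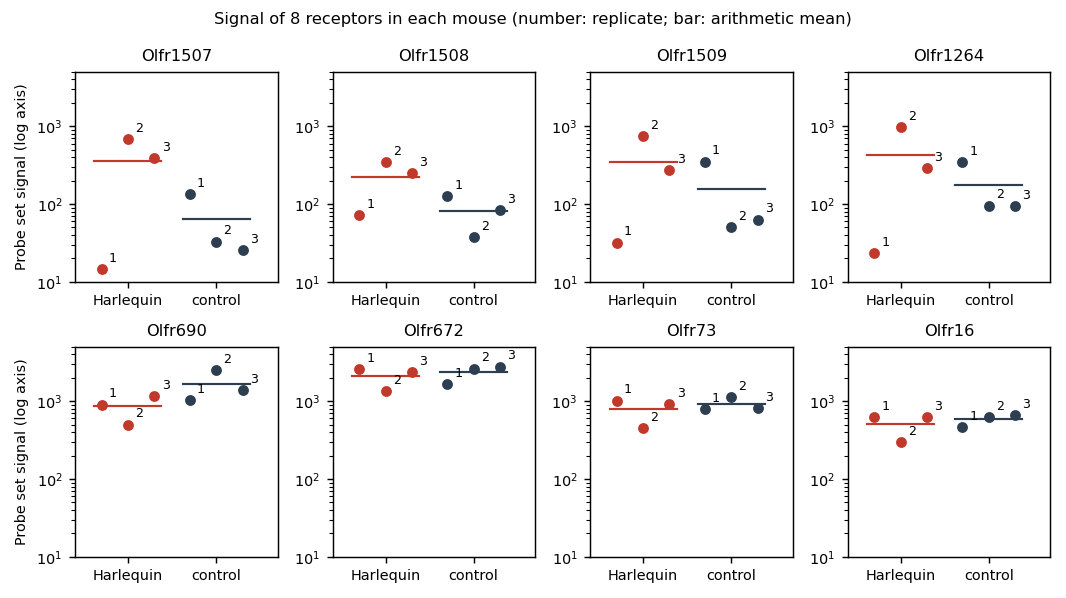
Probe set signal of 8 receptors in each mouse on a log axis, with points numbered by replicate and bars at the arithmetic mean of 3 mice. The upper row (Olfr1507, Olfr1508, Olfr1509 and Olfr1264) has its highest point in Harlequin 2, and the lower row (Olfr690, Olfr672, Olfr73 and Olfr16) has its lowest point there.

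The 15 probe sets that were lowest in Harlequin mouse 2 stood for 14 genes, 9 of them class I. Olfr672, class I, read 2567.2, 1354.8 and 2356.3 in Harlequin and 1648.1, 2627.6 and 2779.1 in control. Olfr690, class I, read 903, 501.3 and 1163.5 in Harlequin and 1036.1, 2538.9 and 1384.6 in control. Olfr65, a class I gene in the row of receptors beside the beta-globin genes, read 798.3, 402.4 and 874.9 in Harlequin and 486.9, 593.1 and 534.5 in control. Mouse 2 was below each of the other 5 in all 3 receptors, while the other Harlequin mice lay within or above the control values for Olfr672 and Olfr65. Olfr544, a class I receptor for azelaic acid, read 241.9, 150 and 248.4 in Harlequin and 208.5, 271.9 and 279.5 in control. Olfr658, also class I, read 141.9, 70.5 and 215.3 in Harlequin and 121.4, 207.6 and 190.2 in control. Summed over the 15, the signal was 8093, 4233 and 8070 in Harlequin and 6229, 9759 and 8153 in control. Control 1 was the second lowest here, and for the set of 11 it was the second highest. The lowest sum, in Harlequin 2, follows from the choice of the 15. Olfr67 and Olfr68, neighbouring class I genes, read 115.7, 63.5 and 125.4 and 87.4, 41.1 and 108 in Harlequin, and 89.7, 141.5 and 103.2 and 85.5, 124.4 and 68.1 in control.

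Class II supplied 5 of these 15. Olfr73, known as mOR-EG and a receptor for eugenol of the dorsal epithelium, read 1020.3, 448.6 and 915 in Harlequin and 783.8, 1129.7 and 823.7 in control. Olfr16, known as MOR23 and a receptor for lyral, read 626.6, 300.4 and 623.2 in Harlequin and 468.8, 627.1 and 657.7 in control. Olfr976 read 679.3, 232.7 and 388.2 in Harlequin and 316.2, 532.5 and 408.3 in control. All 3 were well below the other mice in mouse 2, like class I. Olfr480 and Olfr17 were also lowest in mouse 2 but spread less. Olfr480 read 108.8, 89.2 and 156.4 in Harlequin and 113.1, 149.8 and 143.4 in control. In the promoter windows, TAATNA stood in 4 of 9 genes of the set highest in mouse 2 (44.4%) and in 7 of 11 of the set lowest in it (63.6%).

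Of 8 genes of zones and axon guidance measured, 6 had their highest or lowest value in Harlequin mouse 2, against 31.4% of all probe sets tested. Nqo1, Robo2 and Sema3f were lowest there, Ncam2, Nrp2 and Nrp1 were highest, and Plxna1 and Sema3a had their extremes in other mice. Nqo1, a quinone reductase of dorsal-zone neurons, read 9131.9, 5378.6 and 10707.2 in Harlequin and 8341.3, 9931.2 and 7491.6 in control. Ncam2, the adhesion molecule OCAM of ventral-zone neurons, read 548.5, 1375.3 and 813.4 in Harlequin and 1049.3, 936.3 and 751.9 in control. Nrp2, a semaphorin receptor graded towards ventral axons, read 469, 966.1 and 878.4 in Harlequin and 925.3, 661.8 and 770.8 in control. Nqo1 was thus lowest, and Ncam2 and Nrp2 were highest, in the mouse with low class I receptors, and Ncam2 and Nrp2 were lowest in Harlequin 1. Not every probe set of these genes had its extreme there. Of the 3 for Ncam2, 2 were highest in Harlequin 2 and 1 in Harlequin 3, and of the 4 for Nrp2, 2 were highest in each. Over the 8 genes, of 9 listed, the summed signal, with Nqo1 as its largest part, was 14097, 11723 and 16881 in Harlequin and 14524, 15764 and 12808 in control. None of the 8 passed the genotype test (limma, smallest adjusted p = 0.985). Over 11 mature neuron markers the sum was 123129 in Harlequin 2, within the 112511 to 125305 of all arrays. The part of the dissected zones in the receptor values was not tested.

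**Figure D3:**
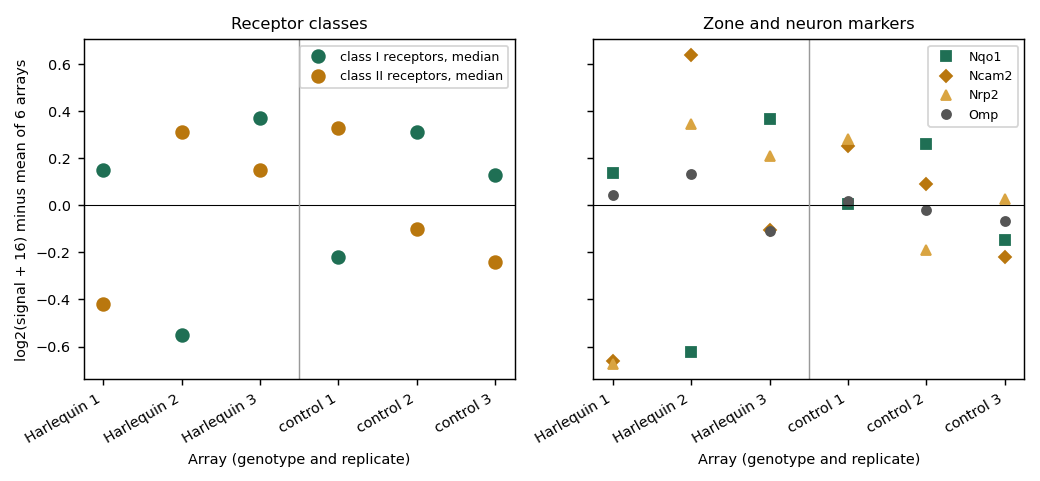
Left, the median over 12 class I and over 22 class II receptor probe sets of log2(signal + 16) minus the mean of 6 arrays. Right, the same quantity for the single genes Nqo1, Ncam2, Nrp2 and Omp. In Harlequin 2 the class I median is -0.55 and the class II median 0.31, and Nqo1 is low while Ncam2 and Nrp2 are high.

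The class medians differed in sign in other mice too. The class I median deviation was 0.15, -0.55 and 0.37 in Harlequin 1, 2 and 3 and -0.22, 0.31 and 0.13 in control 1, 2 and 3, on the log2(signal + 16) scale. The class II median was -0.42, 0.31 and 0.15 in Harlequin and 0.33, -0.10 and -0.24 in control. The signs were opposite on 5 of the 6 arrays, and both medians were positive in Harlequin 3. Since each deviation is taken from the mean of the same 6 arrays, 1 array far from the rest also moves the others' values. The linear signal summed over all 34 probe sets was 11325, 11155 and 13065 in Harlequin and 11032, 13347 and 11676 in control. The brightest probe sets weigh most in this sum, so it is a different measure from the medians.

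The median spread between mice was larger for receptors than for all probe sets tested. The median SD over the 6 arrays of log2(signal + 16) was 0.46 for the 34 receptors and 0.20 for all probe sets tested. An SD above 1 was reached by 7 receptors (20.6%) and by 0.632% of all. At mean signals of 61 to 200 the medians were 0.48 for 15 receptors and 0.29 for all, and at 200 to 3000 they were 0.46 for 19 receptors and 0.18 for all. The widest were Olfr1507 with an SD of 1.87, Olfr1264 with 1.64, Olfr1509 with 1.60 and Olfr288 with 1.55, all class II. Of these, Olfr288 exceeded a mean of 61 only with Harlequin 2 included. The steadiest were Olfr17 with 0.23, Olfr870 with 0.27, and Olfr112 and Olfr480 with 0.28 each. Olfr870 read 316.4, 335.4 and 317.8 in Harlequin and 442.8, 308.6 and 240.7 in control. Olfr112 read 116.8, 120 and 125.8 in Harlequin and 178.8, 152.5 and 96.6 in control. For both, the 3 Harlequin values lay close together inside the control range.

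**Figure D4:**
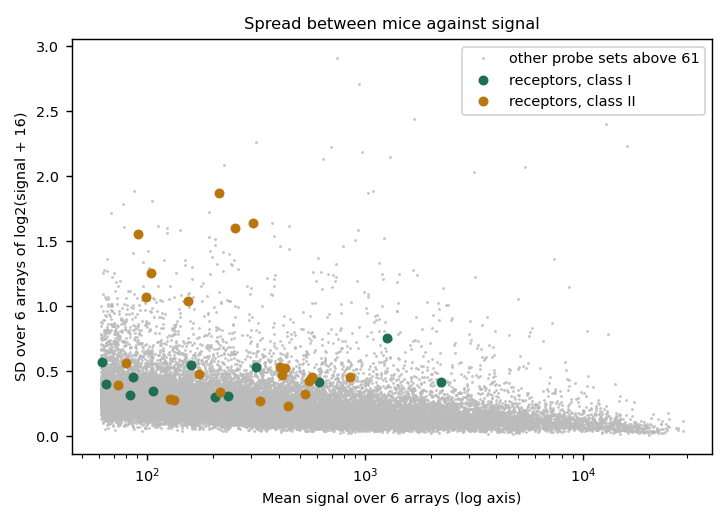
SD over 6 arrays of log2(signal + 16), vertical axis, against mean signal on a log axis, for 34 receptor probe sets coloured by class and, in grey, the other probe sets above 61. The 7 receptors with an SD above 1 are all class II, and the receptors' median SD is 0.46 against 0.20 for all probe sets tested.

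No receptor passed the test of Harlequin against control. With limma and Benjamini-Hochberg adjustment over all 27382 probe sets, 0 of 34 receptor probe sets passed an adjusted p under 0.05, where 0.0256% of all probe sets did. The smallest adjusted p among receptors was 0.968. At an unadjusted p under 0.05, 0 receptors were higher in Harlequin, against 1.99% of all, and 2 were lower (5.88%), against 2.72% of all. Groups without overlap were found for 0 receptors higher in Harlequin, against 4.66% of all, and for 2 lower (5.88%), against 5.34%. The count without overlap is close to its background share. The count of 2 at an unadjusted p is above its share, but it is only 2 of 34 probe sets. On average 16 were higher and 18 lower in Harlequin. The median log2 difference, Harlequin minus control, was -0.091 over the 34, -0.14 over all 44 without a filter and -0.004 over all probe sets tested. It was -0.14 for class I (5 higher, 7 lower) and -0.02 for class II (11 and 11).

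A missing call does not show equal levels. The 95% interval included both signs for 32 of the 34 probe sets, with a median width of 1.44 log2 units and a range of 0.70 to 4.71. Single mice moved these counts, with 0 adjusted calls throughout. Without Harlequin 1, 8 receptors had an unadjusted p under 0.05 in limma (4.74% of all probe sets), among them Olfr1507, Olfr1508, Olfr1509, Olfr1264, Olfr315 and Olfr288. Without Harlequin 2 or without control 1 there were 4 (4.02% and 5.33% of all), and without control 2 there was 1 (3.44% of all). The median over the receptors turned to 0.05 without Harlequin 2. Groups without overlap numbered 5 without any 1 of the Harlequin mice, 9 without control 1 and 3 without control 2 or 3, where 17.2% to 21.6% of all probe sets did not overlap, since 2 against 3 mice separate more easily.

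**Figure D5:**
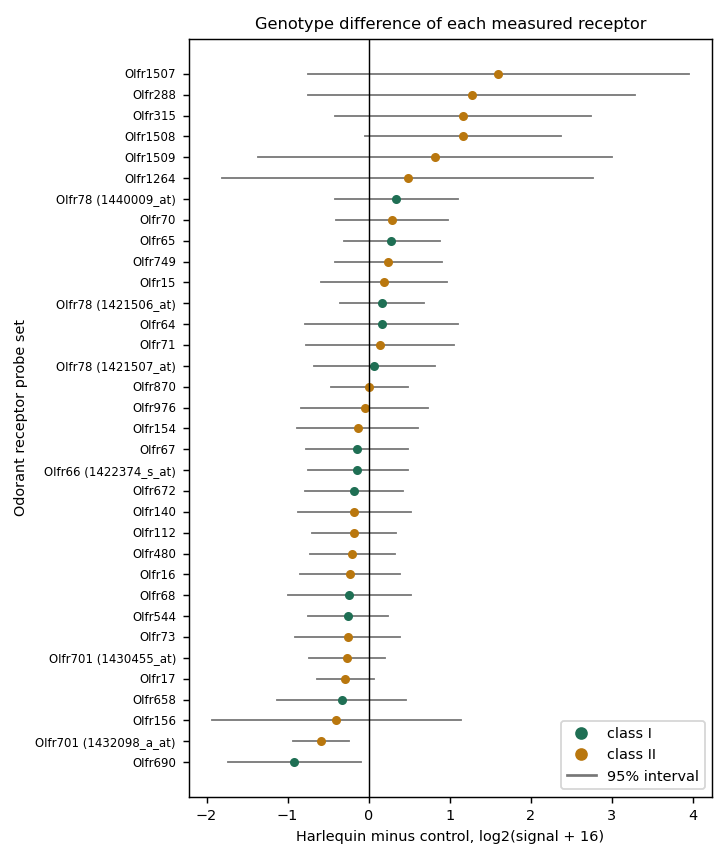
Log2 difference, Harlequin minus control, on the log2(signal + 16) scale for the 34 receptor probe sets above 61, with 95% intervals from limma. Intervals of 32 probe sets include 0, and those of Olfr690 and of Olfr701 (1432098_a_at) lie below it.

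Olfr701 had the smallest p-value, and its probe sets differed. At 1432098_a_at the signal was 150.1, 192.1 and 164.4 in Harlequin and 267, 264 and 250.9 in control, with no overlap. The means were 169 ± 21.4 and 261 ± 8.56 (SD, n = 3 each), and the log2 difference was -0.59 (SE 0.15, 95% interval -0.94 to -0.24), with a limma adjusted p = 0.968. At 1430455_at the signal was 388, 443.2 and 595.7 in Harlequin and 692.4, 439.1 and 604.8 in control, which overlapped, with a log2 difference of -0.27 (95% interval -0.74 to 0.20). Left-out mice moved the 1432098_a_at difference between -0.51 and -0.68, all negative. The suffix _a_at is used for probe sets that match several transcripts of a gene.

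Olfr690 and Olfr17 were also lower on average. For Olfr690 the means were 856 ± 334 in Harlequin and 1650 ± 787 in control (SD, n = 3 each), a log2 difference of -0.92 (95% interval -1.74 to -0.10, limma adjusted p = 0.985). The groups overlapped, since Harlequin 3 exceeded control 1, and the gap rested on the low Harlequin 2 and the high control 2. It was -0.58 without the first of these and -0.56 without the other, neither at an unadjusted limma p under 0.05. Olfr17, the P2 receptor used in classic studies of axon targeting, read 425.5, 339.7 and 413.6 in Harlequin and 569.2, 445.5 and 444.7 in control. Its groups did not overlap, but the log2 difference was only -0.29 (95% interval -0.64 to 0.06, limma adjusted p = 0.985).

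The receptors with the largest mean differences towards Harlequin each had an SD above 1 over the 6 arrays. The log2 difference was 1.60 for Olfr1507 (95% interval -0.75 to 3.95), 1.27 for Olfr288 (-0.75 to 3.29), 1.17 for Olfr315 (-0.41 to 2.75) and 1.16 for Olfr1508 (-0.05 to 2.37). Each interval included 0, and the limma adjusted p = 0.985 for all 4. All of them had Harlequin 2 as their highest mouse. In control, Olfr288 and Olfr315 averaged 35.3 and 54.9, below the threshold of 61. They entered the test through their Harlequin means of 147 and 153, and Olfr288 did so only with Harlequin 2 included. Olfr1507 differed by 2.98 without Harlequin 1 (limma adjusted p = 0.523) and by 0.72 without Harlequin 2. Olfr1509, next to it, differed by 0.82 (-1.37 to 3.00) and Olfr1264 by 0.48 (-1.81 to 2.77), and both turned negative without Harlequin 2.

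Olfr78, a class I receptor for short-chain fatty acids that is also used in blood vessels, has 4 probe sets. At 1440009_at it read 397.8, 204.1 and 463.6 in Harlequin and 203.4, 401.6 and 218.1 in control. At 1421506_at it read 235.2, 145.5 and 276.6 in Harlequin and 178.2, 200.7 and 182.7 in control. At 1421507_at it read 71.7, 38 and 92.7 in Harlequin and 41.8, 64.9 and 79.1 in control. These 3 agreed that Harlequin 3 was the highest mouse and that Harlequin 2 was low. The fourth, 1453535_at, at 25.1, 130.1 and 2.9 in Harlequin and 19, 137.9 and 45.7 in control, ran otherwise. The log2 differences of the 3 above 61 were 0.34, 0.17 and 0.07, with intervals that include 0. Olfr66, a class I gene beside the beta-globin cluster, has 2. Its 1422374_s_at read 70.3, 55.4 and 112.4 in Harlequin and 81.6, 103.9 and 74.1 in control, and its 1450596_at read 65.7, 37.7 and 72.5 in Harlequin and 50.6, 47.7 and 67 in control. Both were lowest in Harlequin 2 and highest in Harlequin 3, and the suffix _s_at marks probes shared with other transcripts.

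The remaining receptors above 61 showed no order of genotypes. Olfr749, class II, read 832.9, 414.3 and 605 in Harlequin and 388.5, 740 and 432.8 in control. Olfr154, class II, read 138.8, 119.4 and 223.1 in Harlequin and 103.5, 184 and 261 in control. Olfr64, class I, read 68.6, 51.8 and 66.7 in Harlequin and 18.8, 76.5 and 90.6 in control. In all 3 the lowest mouse was control 1 and the groups overlapped.

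Genes that bring receptors to the membrane and that govern receptor choice were measured alongside. Of 7 transport genes listed, 5 were measured and 0 passed in either direction, with a median log2 difference of -0.035. They were Reep1 at 0.12 and Reep6 at -0.07, both receptor-accessory proteins, and the chaperones Hspa5 at 0.02, Canx at -0.11 and Calr at -0.04. Rtp1 and Rtp2, the main transporters of receptors to the membrane, were not analysed here. Of 19 choice and feedback genes, 18 were measured and 0 passed, with 14 higher and 4 lower on average and a median of 0.047. Lhx2, the homeodomain factor required for most class II expression, differed by 0.01, its partner Ldb1 by 0.22 and Emx2 by -0.21. The Ebf factors differed by 0.18 (Ebf1), 0.06 (Ebf2), 0.05 (Ebf3) and 0.23 (Ebf4). Kdm1a, a demethylase needed to open a receptor gene, differed by -0.03, and Atf5 and Adcy3, which carry the feedback that fixes the choice, by 0.01 each. Eif2ak3, the kinase PERK that starts this feedback, differed by 0.05. The heterochromatin and nuclear envelope genes that keep unchosen receptors silent differed by 0.04 (Ehmt1), 0.03 (Cbx5), -0.24 (Cbx3), 0.13 (Lbr) and 0.19 (Lmnb1). The mean of Cbx3, 75.8, was near the threshold of 61, and Harlequin 1 and 2 read below that threshold, at 54.3 and 57.8. None of the 18 had an unadjusted limma p under 0.05.

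Bcl11b, a zinc finger factor that favours class II over class I receptors, had the largest difference in that list. It read 1253.4, 1961.7 and 1538.3 in Harlequin and 1457.9, 1125 and 953.9 in control, a log2 difference of 0.42 (95% interval -0.02 to 0.86, limma adjusted p = 0.985). Its highest mouse was Harlequin 2, and its groups overlapped. Bcl11b has 4 probe sets, and only the brightest is given. Ldb1, Atf5, Eif2ak3, Ehmt1, Cbx5 and Lmnb1 were also highest in Harlequin 2, and the other genes of that list were highest in other mice. A part of Bcl11b in the class pattern was not tested. Of 19 genes of the transduction cascade, 17 were measured and 0 passed, with a median of 0.039. Gnal and Cnga2 each differed by 0.04. The largest difference towards control was that of Cngb1, a channel subunit, at 11.1, 81.8 and 49.9 in Harlequin and 108.4, 114.3 and 110.7 in control (log2 difference -1.19, limma adjusted p = 0.985). The mean of Cngb1, 79.4, was near the threshold of 61. Its mean was 47.6 in Harlequin and 111 in control, so control carried it past the threshold. Pde4a, a phosphodiesterase, differed by 0.34 without overlap (limma adjusted p = 0.985). Among zone genes, Robo2, an axon guidance receptor, read 115.7, 92.5 and 134.9 in Harlequin and 181.2, 227 and 181.2 in control, lowest in Harlequin 2 (log2 difference -0.71, limma adjusted p = 0.985). Of 44 other chemosensory receptors listed, only 18 were named alone by a probe set, and the rest were not measured. Among the 18, 4 had a mean above 61 and 0 passed. Their log2 differences were 0.05 for Ms4a6c, -0.04 for Ms4a7, 0.82 for the formyl peptide receptor Fpr2 and -0.14 for the vomeronasal receptor Vmn1r44.

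Markers of erythrocytes, neutrophils and B and plasma cells were higher on average in Harlequin, and those of macrophages were mixed. Of 8 macrophage markers, 5 were higher and 3 lower on average, with a median log2 difference of 0.117 and 0 passing. The summed signal of 4 erythrocyte genes (of 7 listed) was 3077 to 3992 in Harlequin and 755 to 2134 in control. That of 8 neutrophil genes was 32318 to 50977 in Harlequin and 13680 to 41158 in control, and 1 of the 8, Chil3, passed the test (limma, adjusted p = 0.027). All 8 were higher on average, with log2 differences from 0.04 for Elane and 0.34 for Mpo to 2.20 for Chil3. Chil3 read 404.8 in control 3, the mouse in which Mpo and Elane were highest, so its call does not stand for the set. The summed signal of 6 B and plasma cell genes (of 8 listed) was 1925 to 4508 in Harlequin and 1293 to 1575 in control, without overlap, with all 6 higher on average (median log2 difference 0.44) and 0 passing. The part of these cells in the receptor values was not tested. Of the globose basal cell markers, 6 of 7 were measured, all 6 lower on average (median -0.192) and 0 passed, and the 10 immature neuron markers had a median of 0.036 with 0 passing.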

How the data were processed

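Values are linear probe set intensities as deposited by the authors, 1 Affymetrix array per mouse. The software that made them is not given in the sources used here. Leaving out the lowest and highest 2% of values, the mean was 500 on every array, so each had been scaled. Intensities were analysed as log2(value + 16), which understates differences of dim probe sets. Probe sets with a mean above 61 over the 6 arrays (27382 of 45037, 64 controls left out) were fitted with limma 3.58.1 in R 4.3.3 (lmFit, eBayes with an intensity trend), 3 against 3, without further terms, and two-sided p-values were adjusted by Benjamini-Hochberg over all of them. The procedure was tested on simulated data. Names came from the platform annotation, and 39 of 39 receptor identifiers were found in RefSeq GRCm38.p6, which also gave promoters.

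Receptors named are the 10 with the highest mean, the 8 with the smallest p, those with several probe sets, those nearest the threshold and the 4 most and 4 least spread. Others are given because their values belong to the pattern in Harlequin mouse 2, noticed after values were seen, or to complete the members. The members and lists were chosen with earlier results of these data known. Array number limits the precision. The alternatives were 2 normalizations, pseudocounts of 1 and 64, filters, variance models, array weights, 1 probe set per gene, left-out suffixes and arrays, and the replicate number as a block.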

Additional observations from a re-analysis of the deposited data

How the results depend on the processing

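The count of receptors at an adjusted p under 0.05 was 0 under every alternative and without each array. The count at an unadjusted p under 0.05, which was 2, became 1 with 1 probe set per gene, without an intensity trend, with robust moderation and with the replicate number as a block, 3 with array weights or median scaling, and 1 to 8 with 1 array left out. The labels state no pairing of same-numbered mice. Their deviations from the group means correlated at -0.17, 0 and 0.1, and those of other pairs at -0.25 to 0.28. With so few mice these values cannot show whether the numbers pair them. The replicate block changed no adjusted call. Receptors without overlap numbered 2, or 1 with 1 probe set per gene or median scaling, and 3 to 9 with 1 array left out. Counting only receptors above 61 on all 6 arrays gave 21 in place of 34. The median difference of -0.091 ranged from -0.162 to 0.049 with 1 array left out. The count highest or lowest in Harlequin mouse 2, 26 of 34, was 27 with quantile normalization or median scaling, 25 without the _s_at probe sets and 24 with 1 probe set per gene, all 4 chosen after seeing the data. Of 423 alternatives for 26 named receptor probe sets, 407 kept direction and call and 16 changed sign, none of a called receptor. With array weights Olfr870 was -0.04. With 1 array left out, log2 differences ranged from -0.42 to 0.10 for Olfr672, -0.48 to 0.10 for Olfr73, -0.40 to 0.11 for Olfr16, -0.43 to 0.32 for Olfr976, -0.52 to 0.16 for Olfr140, -0.01 to 0.42 for Olfr78 (1421506_at), -0.13 to 0.36 for Olfr78 (1421507_at), -0.37 to 0.05 for Olfr66 (1422374_s_at), -0.35 to 0.26 for Olfr64, -0.19 to 0.23 for Olfr870, -0.08 to 1.91 for Olfr1509 and -0.59 to 1.75 for Olfr1264. Beyond the array left out, the cause was not tested. Signals near the threshold of 61 are close to background, and the software's own detection calls were not used here.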

Other observations

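The 3 probe sets that name 2 receptors each were left out of the members and of every count above. The probe set of Olfr151 and Olfr160, the receptors M71 and M72 for acetophenone, read 752.1, 414.6 and 804.3 in Harlequin and 562.9, 870 and 743.1 in control. Those of Olfr69 and Olfr68, class I genes beside the beta-globin cluster, read 415.1, 221.9 and 370 in Harlequin and 243.9, 418.4 and 252.2 in control at 1422362_s_at, and 507.6, 313 and 573.9 in Harlequin and 328.4, 451.7 and 323.4 in control at 1450592_at. All 3 were lowest in Harlequin mouse 2, and none passed the genotype test (limma, adjusted p = 0.987, 0.992 and 0.985 in that order).

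Below the threshold, Olfr49 read 5.6, 115.4 and 29.7 in Harlequin and 108.9, 78.4 and 25.1 in control, and the OR37 receptor Olfr155 read 23.1, 107 and 14.4 in Harlequin and 61.2, 35.1 and 2.7 in control. Both were highest in Harlequin mouse 2 and second highest in control mouse 1.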
